A study of Danio rerio with 8 samples.

Results

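The genes described here belong to the ATF4 stress response and were taken by symbol from a table of read counts per gene: atf4a, atf4b, atf5a, asns, chac1, ddit3, trib3, ddit4 and sesn2. A further symbol on the list, atf5b, had no row under that name, so 9 of the 10 listed genes are described, out of 14781 rows. All 9 passed the filter on low counts, and the lowest count of any of them in any library was 237. The libraries came from zebrafish (Danio rerio) tumour cells, 4 per group. The MYCN group held EGFP-positive neuroblastoma cells from MYCN transgenic fish, and the myrAKT group mCherry-positive ganglioneuroma cells from myrAKT transgenic fish. In both groups the tumours were broken up mechanically and the fluorescent cells were sorted into Trizol-LS, with no further treatment. Transgene, tumour type and fluorescent marker changed together, so they cannot be told apart. The labels name neither the promoter of a transgene, the age of the fish nor how many fish gave a sample, so the p-values cover only the scatter of these 4 libraries per group, which may be technical.

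ATF4 is a bZIP transcription factor at the centre of the integrated stress response. In vertebrate cells, kinases that sense a shortage of amino acids, unfolded protein in the endoplasmic reticulum, viral RNA or a lack of heme phosphorylate the initiation factor eIF2. Phosphorylated eIF2 blocks its exchange factor eIF2B, which lowers translation in general while raising translation of the ATF4 and ATF5 messages. ATF4 then switches on genes for amino acid supply, glutathione turnover, restraint of the growth kinase complex mTORC1 and, under lasting stress, cell death. Since much of this control acts on translation, counts of atf4 mRNA are not a measure of ATF4 protein. Neuroblastoma and ganglioneuroma arise in the sympathetic nervous system, where MYCN drives growth and AKT acts upstream of mTORC1.

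Counts summed to between 25948623 and 55827123 per library, and MYCN 4 stood apart from the other MYCN libraries in several genes below. The sorted cells carried sympathoadrenal markers in both groups, with summed levels of 9279 to 11036 counts per 1000000 (CPM, scaled with TMM factors) in MYCN and 2044 to 4486 CPM in myrAKT. Dbh, which makes noradrenaline, was at 3349 ± 304 CPM (SD, n = 4) in MYCN and 1248 ± 377 CPM in myrAKT, a log2 fold change of -1.42. Th, the first enzyme of catecholamine synthesis, was at -1.33 on the log2 scale. Of the 12 tested sympathoadrenal markers 10 fell and 2 did not pass, with a median log2 fold change of -2.14. Beside this and the marker counts that follow, 38.4% of all tested genes fell and 37.6% rose. Of the 9 tested neuronal markers 7 fell, from summed levels of 954 to 1290 CPM to 203 to 514 CPM. Each list for another cell type had a higher sum in every myrAKT library than in any MYCN library. The summed leukocyte markers were at 382 to 1205 CPM in MYCN and 16766 to 20529 CPM in myrAKT, with 14 of 14 higher. For the erythroid markers the ranges were 191 to 329 and 4596 to 11525 CPM (9 of 10 higher), and for the kidney tubule markers 32.0 to 51.9 and 1231 to 4339 CPM (10 of 10). Endothelial markers summed to 18.2 to 29.1 and 684 to 821 CPM (12 of 12), lymphocyte markers to 40.4 to 68.4 and 435 to 678 CPM (10 of 11 higher and 1 lower). Stromal markers summed to 22.9 to 58.1 and 473 to 635 CPM (7 of 9 higher), and glial markers to 26.3 to 42.4 and 93.8 to 109 CPM (6 of 8 higher and 1 lower). In MYCN no count was found for pax5 of B cells or erbb3b of glia, and in neither group for gap43, pdgfrb or the beta globin listed as ba1. Genes of rapid response, listed as handling markers, were summed at 449.7 to 1899 CPM in MYCN, highest in MYCN 1, and 358 to 435 CPM in myrAKT. Their directions were mixed, with 5 of 16 higher and 8 lower, and btg2 alone was at 500.6 CPM in MYCN 1. The part of these other cells in the results below was not tested, also where marker values are given. Fewer cells of a type and less RNA per cell cannot be told apart in bulk samples.

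Setting the ganglioneuroma samples against the neuroblastoma samples shows which of these genes differ in level between them. The samples also differed in markers of other cells, so a difference need not lie in the tumour cells. The ATF4 response genes did not move as one. Trib3, ddit4 and sesn2, which restrain AKT or mTORC1 signalling, rose. Atf5a, atf4a and chac1 fell, while atf4b, asns and ddit3 did not pass the test. Thus 6 of 9 passed (edgeR quasi-likelihood test, Benjamini-Hochberg adjusted p under 0.05 over 12126 genes), where 76.0% of all tested genes did. The 3 higher and 3 lower genes stood beside 37.6% higher and 38.4% lower over all genes, and the median log2 fold change was 0.026 for the 9 genes against -0.044 for all genes. The groups did not overlap for those same 6 genes, as for 72.5% of all genes (36.2% with myrAKT above and 36.3% below). A change of at least 2-fold that passed was found for 4 of the 9, against 55.2% of all genes. Without MYCN 4 the count was 4 higher and 4 lower, beside 80.9% of all genes called, 40.0% higher and 40.8% lower. These shares are near the background of this comparison, so they say little about the response as a whole, and the values of the single genes carry the description.

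**Figure D1:**
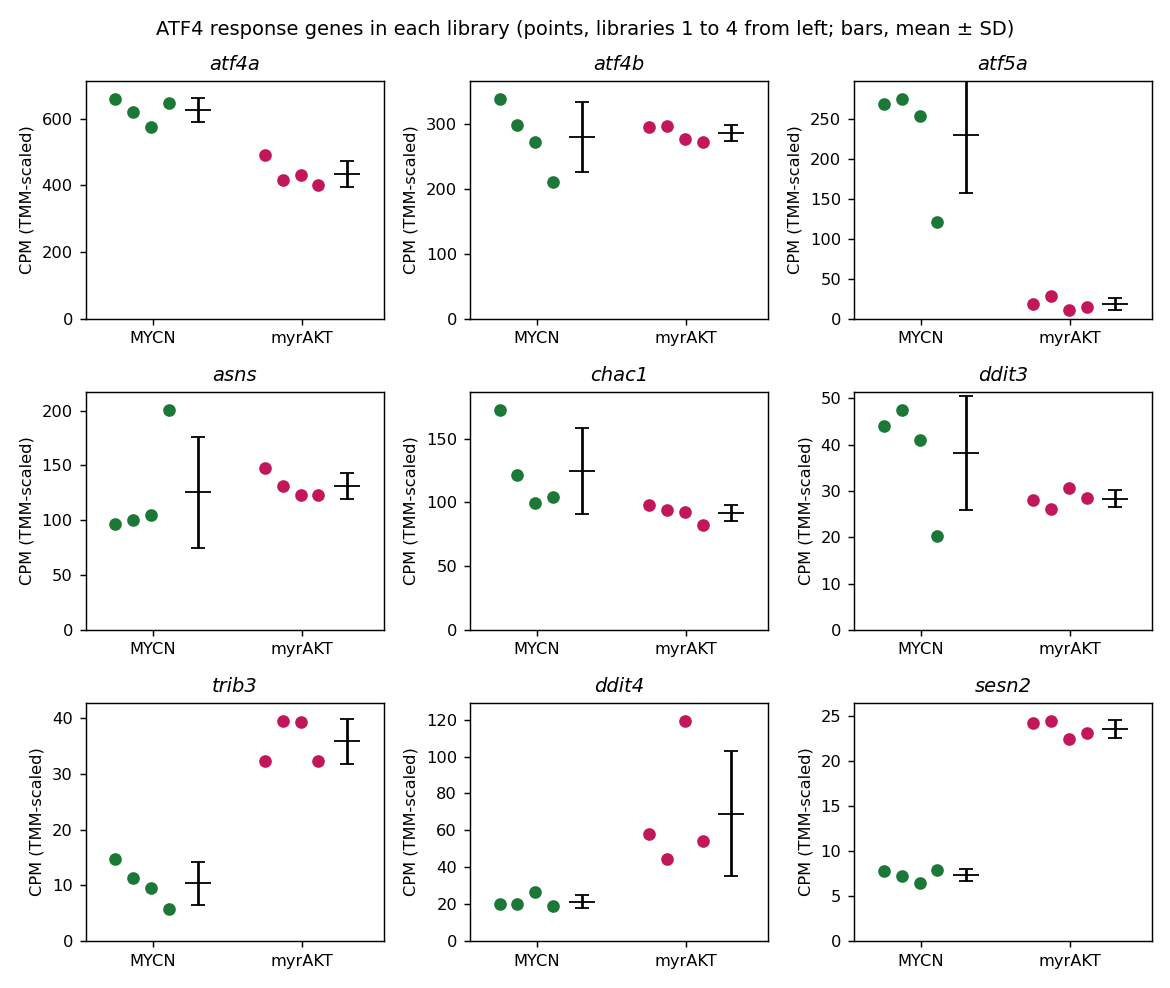
Level of each gene in the 8 libraries in CPM scaled with TMM factors (y axis, linear from 0), MYCN in green and myrAKT in magenta, with the group mean ± SD at the right of each set of points. Trib3, ddit4 and sesn2 are higher in every myrAKT library, atf5a and atf4a are lower, and asns of MYCN 4 lies at 201 CPM, above the other MYCN libraries.

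The scaling of the libraries moved part of these results. With TMM factors the median log2 fold change of all genes was -0.044, and with plain library totals it was 0.34. With library totals 4 of the 9 genes were higher and 1 was lower, where 45.4% and 27.6% of all genes were, so that 62.2% of all calls were higher against 49.5% with TMM factors. The rises of trib3, ddit4 and sesn2 and the fall of atf5a passed under both scalings. Together the 9 genes took 0.0998 to 0.144% of all counts in MYCN and 0.123 to 0.131% in myrAKT.

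**Figure D2:**
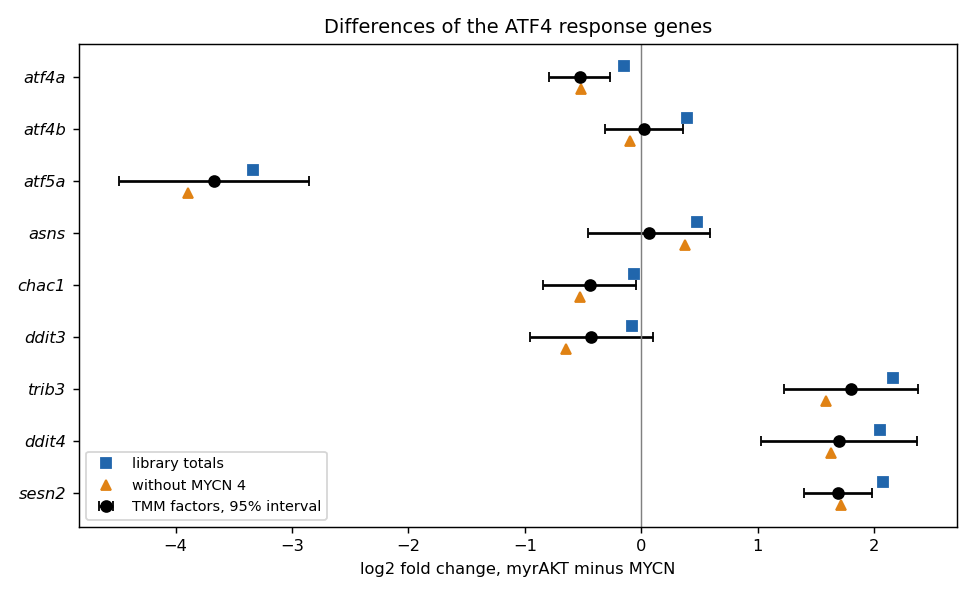
Log2 fold change of myrAKT minus MYCN (x axis) for each gene, with TMM factors and the 95% interval of the quasi-likelihood fit (black), with library totals (blue squares) and without MYCN 4 (orange triangles). Atf5a at -3.67 and the group of trib3, ddit4 and sesn2 between 1.69 and 1.797 lie clear of 0 in all 3, whereas atf4a, atf4b, asns, chac1 and ddit3 lie within 1 unit of it.

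Zebrafish carry a pair of ATF4 genes, atf4a and atf4b, and their levels relative to each other differed between the groups. Atf4a was at 660.4, 622, 577 and 647 CPM in MYCN 1 to 4 and at 489.9, 417, 432 and 400.3 CPM in myrAKT 1 to 4. All 4 myrAKT libraries lay below all 4 MYCN libraries, and the edgeR fit gave -0.53 ± 0.12 (log2 fold change ± SE, adjusted p = 0.0022). This call held without any single library (adjusted p between 0.0015 and 0.0099) and ended with library totals, where the log2 fold change was -0.15 (adjusted p = 0.256). Atf4b was at 338, 298, 273 and 211 CPM in MYCN and at 294, 297, 277 and 272 CPM in myrAKT. Those groups overlapped, and the log2 fold change of 0.026 had a 95% interval from -0.31 to 0.36. With library totals atf4b was at 0.39 (edgeR adjusted p = 0.073), where the median over all genes was 0.34. Whether atf4a fell or atf4b rose thus depended on the scaling.

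A ratio of both genes within a library does not depend on how libraries are scaled. Atf4b made up 33.9, 32.4, 32.1 and 24.5% of the atf4a and atf4b counts in MYCN 1 to 4, and 37.5, 41.6, 39.1 and 40.4% in myrAKT 1 to 4. Every myrAKT library had a larger share than every MYCN library. The means were 39.7 ± 1.75% (SD, n = 4) and 30.7 ± 4.20%, a difference of 8.92 percentage points (two-sided exact permutation test over 70 splits, p = 0.0286, the smallest it can give). Counting error was small beside this, since the widest 95% Wilson interval ran from 39.8 to 41.1% in myrAKT 4. Intervals of this kind cover counting error only. The levels of 72.5% of all tested genes did not overlap between the groups, and how often ratios of other gene pairs separate was not measured. No gene length was used, so these are shares of counts and not of molecules.

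**Figure D3:**
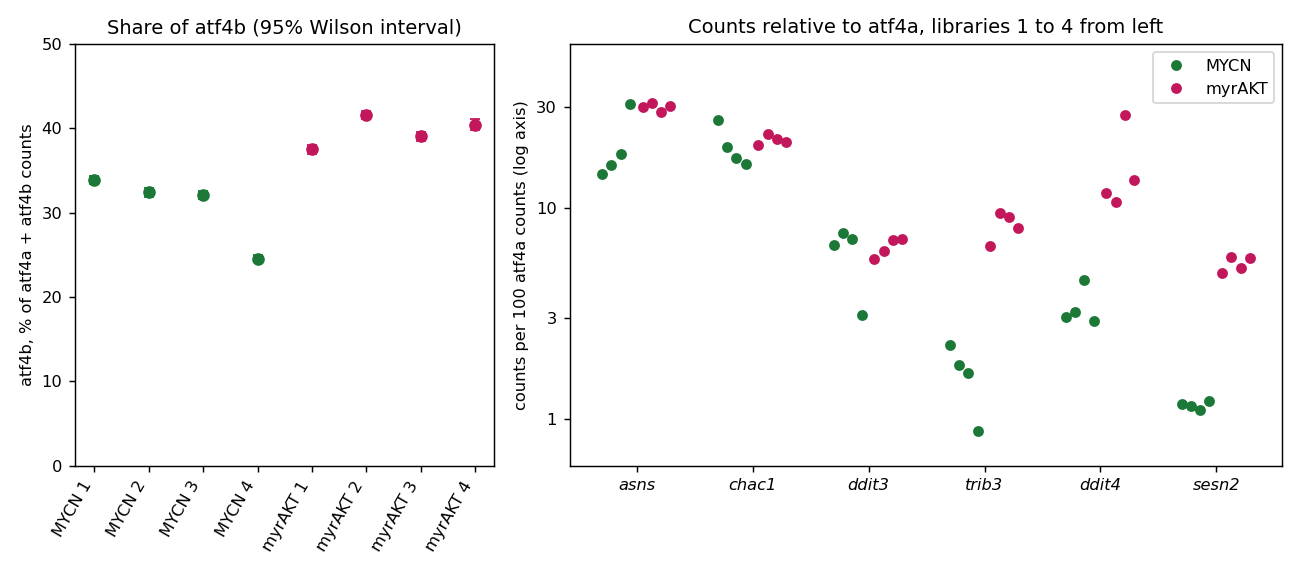
Left, atf4b as a percent of the summed atf4a and atf4b counts in each library (y axis) with 95% Wilson intervals. Right, counts of 6 other genes per 100 atf4a counts (y axis, log scale) in MYCN (green) and myrAKT (magenta) libraries: sesn2, trib3 and ddit4 are separated between the groups, while asns of MYCN 4, at 31.0, lies among the myrAKT libraries.

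Atf5a, a bZIP factor that in mammals is translated under stress much as ATF4 is and is known from neural progenitors, showed the largest difference of the 9 genes. It was at 269, 275, 253 and 121 CPM in MYCN 1 to 4 and at 18.6, 28.3, 10.8 and 14.1 CPM in myrAKT 1 to 4. Even the lowest MYCN library was well above the highest myrAKT library. In the edgeR fit atf5a changed by -3.67 ± 0.36 on the log2 scale (adjusted p = 1.1e-05), a level 12.7-fold lower in myrAKT. Leaving out single libraries gave log2 fold changes between -3.99 and -3.49. Per 100 atf4a counts, atf5a had 36.9 ± 12.2 counts (SD, n = 4) in MYCN and 4.16 ± 1.85 counts in myrAKT. Of 12 sympathoadrenal markers 10 fell, with a median log2 fold change of -2.14 over the list. Of 9 neuronal markers 7 fell, with a median of -1.51. Over all tested genes 38.4% fell, with a median of -0.044. The sympathoadrenal markers included ddc at -0.34, which did not pass, dbh at -1.42, tfap2b at -3.35 and chgb at -4.80. The neuronal stmn2b, at -0.13, did not pass, while elavl4 was at -3.59 and elavl3 at -5.51. Ddc, tfap2b, chgb, stmn2b, elavl3 and elavl4 were named after their values were seen. The part of these cells in the fall of atf5a was not tested. Over the myrAKT libraries atf5a was highest in myrAKT 2 and dbh was highest in myrAKT 4, at 1659 CPM, and a link between them was not tested.

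Among the targets that act in metabolism, asns makes asparagine from aspartate. Asns was at 96.2, 99.9, 104 and 201 CPM in MYCN 1 to 4 and at 147, 132, 123 and 123 CPM in myrAKT 1 to 4. MYCN 4 was the highest library of all 8, and the other MYCN libraries were the lowest. The difference was 0.065 on the log2 scale, with a 95% interval from -0.46 to 0.59. Without MYCN 4 it was 0.38 ± 0.090 and passed (edgeR adjusted p = 0.0045). With library totals it passed at 0.48 (adjusted p = 0.040), where the median over all genes was 0.34 and 45.4% of genes were higher. Relative to 100 atf4a counts, asns had 14.6, 16.1, 18.1 and 31.0 counts in MYCN and 30.04, 31.6, 28.5 and 30.6 counts in myrAKT. MYCN 4 was thus at the level of the myrAKT libraries by this ratio.

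Chac1 encodes an enzyme that breaks down glutathione. It was at 173, 122, 99.7 and 105 CPM in MYCN 1 to 4 and at 97.6, 94.1, 92.1 and 82.4 CPM in myrAKT 1 to 4. The groups did not overlap, but the gap between them was small beside the spread of the MYCN libraries. Chac1 passed narrowly at -0.45 ± 0.18 on the log2 scale (edgeR adjusted p = 0.043), and the call held under 4 of 15 alternatives. It ended without MYCN 1, the highest library, at -0.26 (adjusted p = 0.098). MYCN 1 was also the library with the highest sum of handling markers, at 1899 CPM against 449.7 to 812 CPM in the other MYCN libraries, and the part of handling was not tested. Without MYCN 2, myrAKT 1, myrAKT 2, myrAKT 3 or myrAKT 4 the adjusted p was between 0.061 and 0.103. It was 0.764 with library totals, at -0.061. Per 100 atf4a counts, chac1 had 19.8 ± 4.48 counts in MYCN and 21.1 ± 1.14 counts in myrAKT, and these overlapped. Chac2, a relative of chac1 named after its values were seen, fell from 10.2 ± 2.36 to 3.72 ± 0.356 CPM.

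Ddit3 encodes CHOP, the partner of ATF4 in lasting stress and a promoter of cell death. Its levels were 44.0, 47.55, 41.0 and 20.2 CPM in MYCN 1 to 4 and 28.1, 26.2, 30.6 and 28.5 CPM in myrAKT 1 to 4. MYCN 4 was the lowest of the 8 libraries and the other MYCN libraries were the 3 highest. The difference was -0.43 on the log2 scale, with a 95% interval from -0.96 to 0.098 (edgeR adjusted p = 0.121). Without MYCN 4 it was -0.65 ± 0.089 and passed (adjusted p = 1.9e-04). Among the 15 alternatives, ddit3 passed in this 1.

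Trib3 is a pseudokinase induced by ATF4 and CHOP that in mammals binds AKT and dampens both AKT and ATF4. It was at 14.8, 11.3, 9.56 and 5.69 CPM in MYCN 1 to 4 and at 32.3, 39.5, 39.3 and 32.3 CPM in myrAKT 1 to 4. The lowest myrAKT library was above the highest MYCN library. In the edgeR fit trib3 rose by 1.797 ± 0.26 on the log2 scale (adjusted p = 1.3e-04), or 3.47-fold, and it stayed between 1.58 and 2.01 when single libraries were left out. Per 100 atf4a counts trib3 went from 1.65 ± 0.569 to 8.31 ± 1.29 counts, while ddit3 overlapped between the groups by the same ratio.

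Ddit4, also called REDD1, and sesn2, a sestrin that senses leucine, both hold back mTORC1 in mammals. Ddit4 was at 20.0, 20.0, 26.4 and 18.8 CPM in MYCN 1 to 4 and at 58.0, 44.3, 119 and 54.5 CPM in myrAKT 1 to 4. All myrAKT libraries were higher, and myrAKT 3 stood above the other 3. Ddit4 rose by 1.697 ± 0.30 on the log2 scale (edgeR adjusted p = 5.4e-04), and 1.30 ± 0.17 without myrAKT 3 (adjusted p = 1.5e-04). MyrAKT 3 also had the highest sum of kidney tubule markers, 4339 CPM, and myrAKT 2, with the lowest ddit4 of its group, had the lowest, 1231 CPM. In myrAKT 1 and myrAKT 4 the sums were 2774 and 3516 CPM, where ddit4 was at 58.0 and 54.5 CPM. The part of kidney cells in the level of ddit4 was not tested.

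Sesn2 was at 7.75, 7.20, 6.38 and 7.84 CPM in MYCN 1 to 4 and at 24.2, 24.4, 22.4 and 23.1 CPM in myrAKT 1 to 4. Its spread within both groups was the narrowest of the 3 genes that rose. Its rise was 1.69 ± 0.13 on the log2 scale (edgeR adjusted p = 1.9e-06), or 3.23-fold, and leaving out single libraries moved it to between 1.65 and 1.72. In MYCN 4, where asns, atf5a and ddit3 departed from the other MYCN libraries, sesn2 did not. The other sestrins rose too: sesn1 was at 101 ± 35.0 CPM in MYCN and 365 ± 47.8 CPM in myrAKT, and sesn3 at 5.01 ± 0.886 and 50.1 ± 6.36 CPM. Sestrin genes are also targets of p53 and FOXO factors in mammals, and which regulator acted on them was not tested. Of 4 tested genes listed as relatives of the response genes, sesn1 and sesn3 rose and chac2 and cebpz fell, but cebpz, a nucleolar protein, belongs to none of these families.

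The list around mTORC1 held restraining genes, activators and targets. Of its 18 tested genes 3 rose, 8 fell and 7 did not pass, with a median log2 fold change of -0.50. Over all tested genes 37.6% rose and 38.4% fell, with a median of -0.044. Without MYCN 4 the list had 3 higher and 13 lower, beside 40.0% and 40.8% of all genes. With library totals 3 were higher and 6 lower, with a median of -0.14. The shares over all genes were then 45.4% and 27.6%, with a median of 0.34. The small GTPase rheb, which activates mTORC1, fell from 51.1 ± 1.12 to 4.21 ± 1.44 CPM, and its relative rhebl1 fell from 133 ± 28.4 to 29.9 ± 2.20 CPM. Eif4ebp1, a translation repressor that mTORC1 inactivates and ATF4 induces, fell from 275 ± 15.3 to 102 ± 1.86 CPM. Its relative eif4ebp2 rose from 63.6 ± 15.9 to 237 ± 15.5 CPM. An ATF4 target and its close relative thus moved in opposite directions.

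Upstream of ATF4, the genes for eIF2 and eIF2B were lower in myrAKT. All 11 tested genes of eIF2, eIF2B and related initiation factors fell, with a median log2 fold change of -0.998 (all genes -0.044). Over all tested genes 38.4% fell. With library totals 10 of 11 fell, beside 27.6% of all genes. Eif2b5, the catalytic subunit of eIF2B, fell from 147 ± 18.8 to 45.5 ± 6.66 CPM, a difference of -1.69 ± 0.15 in log2 (edgeR adjusted p = 5.3e-06). Eif2b1, the regulatory subunit, fell from 73.4 ± 10.2 to 23.1 ± 3.41 CPM, and eif2d, an alternative initiation factor, from 52.6 ± 2.80 to 19.6 ± 0.707 CPM.

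Of 9 tested eIF2 kinases and their controls 6 fell, 1 rose and 2 did not pass, with a median of -0.58. No row was found for eif2ak3 and eif2ak4, the kinases for unfolded protein and amino acid shortage, nor for gcn1 and oma1. These counts therefore do not cover those genes. Over all tested genes 38.4% fell and 37.6% rose. With library totals 2 fell and 1 rose, with a median of -0.23, beside 27.6% and 45.4% of all genes. Impact, which restrains the amino acid sensor GCN2, fell from 40.5 ± 6.78 to 13.5 ± 0.893 CPM. Eif2ak2, the kinase of viral RNA known as PKR, was at 33.8, 43.3, 43.9 and 17.5 CPM in MYCN and 13.1 to 14.8 CPM in myrAKT, a difference of -1.32 ± 0.26 in log2 (edgeR adjusted p = 0.0011). The gene zgc:158257, whose current RefSeq symbol is dele1 and which in mammals relays stress of mitochondria, fell by 0.52 on the log2 scale, and this call ended with library totals (adjusted p = 0.436). Dnajc3b, whose mammalian counterpart inhibits eIF2 kinases, rose from 29.2 ± 2.79 to 46.5 ± 2.70 CPM. Further genes were named after their values were seen. Eif2ak1, the heme-regulated kinase, was at 52.9 ± 13.0 and 29.4 ± 9.28 CPM (log2 fold change -0.85, adjusted p = 0.0094; adjusted p = 0.077 with library totals), while 9 of 10 erythroid markers rose in myrAKT and their part was not tested. Ppp1r15a, the phosphatase subunit GADD34 that ends the response, was at 35.6 ± 8.24 and 25.2 ± 6.33 CPM, without passing (adjusted p = 0.066); it passed without MYCN 4 (adjusted p = 0.016), without myrAKT 2 (adjusted p = 0.026) and with a replicate block (adjusted p = 0.048).

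The bZIP factors and regulators listed as acting with ATF4 did not all move alike. Among the 16 that were tested, 10 rose, 1 fell and 5 missed the threshold, with a median log2 fold change of 1.76. The shares over all tested genes were 37.6% higher and 38.4% lower. With library totals 12 were higher and 1 lower, with a median of 2.12, beside 45.4% and 27.6% of all genes. The list also held regulators that are not bZIP factors, tfeb and nupr1 among them, and its counts and median cover these too. Cebpb, a dimer partner of ATF4 and a factor of myeloid cells, was at 15.3, 18.7, 18.6 and 26.9 CPM in MYCN and at 364, 274, 363 and 308 CPM in myrAKT. Cebpa, of myeloid and liver cells, rose from 9.68 ± 1.702 to 225 ± 36.1 CPM, and tfeb, a regulator of lysosomes, from 1.13 ± 0.241 to 30.1 ± 4.48 CPM. The leukocyte markers rose in the same libraries, 14 of 14, and their part in this was not tested. Nfe2l1a, a factor of proteasome and oxidative stress genes, went the other way, from 36.0 ± 4.30 to 4.93 ± 1.35 CPM. Some genes of this list were named after their values were seen. Cebpg, a common dimer partner of ATF4, was at 46.4 ± 11.5 and 49.4 ± 1.44 CPM (log2 fold change 0.089, adjusted p = 0.665), and atf3, a factor that ATF4 induces, at 11.6 ± 2.81 and 17.9 ± 1.33 CPM (log2 fold change 0.63, adjusted p = 0.011). Nupr1, a stress protein induced by ATF4, rose from 1.54 ± 0.498 to 18.9 ± 9.45 CPM, and nfe2l2a, the NRF2 regulator of antioxidant genes, from 40.9 ± 5.59 to 233 ± 15.8 CPM.

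**Figure D4:**
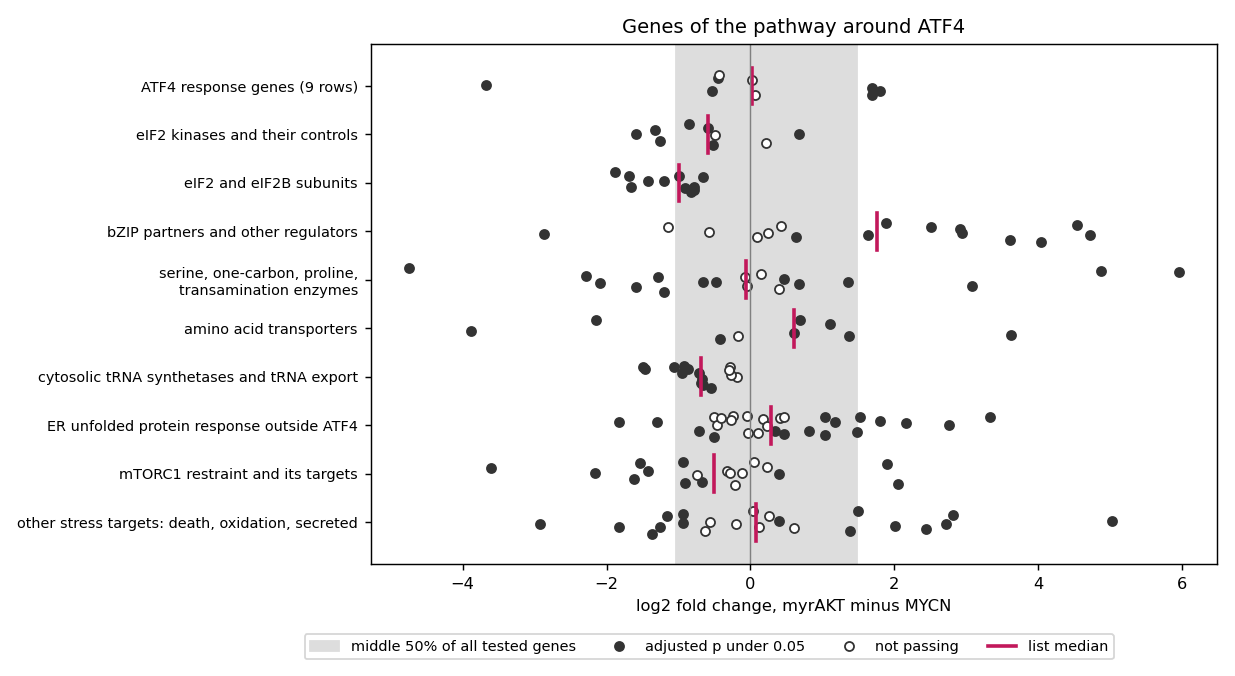
Log2 fold change of myrAKT minus MYCN (x axis) for tested genes of 10 lists around ATF4 (rows), filled where the edgeR adjusted p was under 0.05, with each list median as a bar and the middle 50% of all tested genes in grey. Genes of eIF2 and eIF2B lie left of 0 (median -0.998), and bZIP partners with other regulators mostly right of it (median 1.76). Enzymes of serine and related metabolism lie on both sides (median -0.061).

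Genes for amino acid supply are the best known output of ATF4. Among 18 tested enzymes of serine, one-carbon, proline and transamination metabolism 6 rose, 8 fell and 4 did not pass, with a median of -0.061, where 37.6% of all tested genes rose and 38.4% fell. The median was 0.39 with library totals (6 higher and 6 lower), beside 0.34 over all genes with 45.4% higher and 27.6% lower. Without MYCN 4 the median was 0.15 (8 higher and 7 lower), beside -0.017 over all genes with 40.0% higher and 40.8% lower. Cbsa, which makes cystathionine from homocysteine, fell from 285 ± 89.0 to 10.6 ± 1.48 CPM, pycr1b of proline synthesis from 108 ± 16.5 to 22.03 ± 2.06 CPM, and mthfd1b of the folate cycle from 253 ± 32.4 to 59.1 ± 6.20 CPM. Pck2, the mitochondrial PEP carboxykinase, rose from 3.61 ± 0.708 to 106 ± 47.5 CPM. Like ddit4, pck2 was highest in myrAKT 3, at 165 CPM, and lowest in myrAKT 2, at 50.1 CPM, as were the summed kidney tubule markers. In myrAKT 1 and myrAKT 4 pck2 was at 113 and 96.2 CPM, and the kidney tubule markers summed to 2774 and 3516 CPM. The part of kidney cells in the rise of pck2 was not tested. Within the serine pathway itself the steps diverged, in genes named after their values were seen. Phgdh, the first step, was lower, at -0.67 on the log2 scale (edgeR adjusted p = 0.034). Psat1, the second step, fell from 31.1 ± 12.9 to 13.5 ± 1.58 CPM, whereas psph, the last step, rose from 0.924 ± 0.622 to 7.85 ± 0.747 CPM. Psph was low in MYCN, with counts of 14 to 75 per library. Shmt2, which turns serine into glycine in mitochondria, rose from 16.3 ± 2.24 to 41.7 ± 9.81 CPM.

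Of 9 tested amino acid transporters 5 rose, 3 fell and 1 did not pass, with a median of 0.60. Over all tested genes 37.6% rose and 38.4% fell. With library totals 5 were higher and 2 lower, with a median of 1.03, beside 45.4% and 27.6% of all genes. The zebrafish pair for the heavy chain of the LAT1 and xCT carriers moved apart: slc3a2a rose from 14.4 ± 7.41 to 178 ± 18.3 CPM, and slc3a2b fell from 203 ± 25.6 to 45.7 ± 2.21 CPM. Slc38a2, a glutamine and alanine carrier, rose from 130 ± 23.9 to 210 ± 4.36 CPM and slc6a9, a glycine carrier, from 4.597 ± 1.09 to 9.82 ± 2.83 CPM. Slc1a4, a carrier of serine and alanine named after its values were seen, fell from 134 ± 74.9 to 9.07 ± 1.95 CPM. Like asns, slc1a4 was highest in MYCN 4, at 244 CPM, and so was psat1, at 50.1 CPM.

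ATF4 induces many of the cytosolic tRNA synthetases. Of 15 tested genes of these enzymes and of tRNA export 11 fell and 4 did not pass, with a median of -0.69. With library totals 7 fell. Over all tested genes 38.4% fell, and 27.6% with library totals. Xpot, the exporter of tRNA, fell from 198 ± 10.1 to 70.6 ± 6.44 CPM, the arginine enzyme rars from 238 ± 36.4 to 86.1 ± 9.35 CPM and the alanine enzyme aars from 672 ± 85.6 to 369 ± 44.8 CPM. Atf4a also fell, whereas asns did not pass.

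The other arms of the unfolded protein response, run by IRE1 with XBP1 and by ATF6, were mixed. Of 28 tested genes 12 rose, 4 fell and 12 did not pass, with a median of 0.28. Over all tested genes 37.6% rose and 38.4% fell. Without MYCN 4 there were 19 higher and 5 lower with a median of 0.69, beside 40.0% and 40.8% of all genes. With library totals 17 were higher and 2 lower, with a median of 0.68, beside 45.4% and 27.6% of all genes. Herpud1, of the machinery that removes misfolded proteins, rose from 13.0 ± 3.34 to 131 ± 6.29 CPM, a difference of 3.33 ± 0.19 in log2 (edgeR adjusted p = 3.5e-07). Edem1, which acts in the same disposal, rose from 18.3 ± 1.703 to 64.2 ± 2.50 CPM, and dnajb9b, a cochaperone, from 1.41 ± 0.581 to 9.65 ± 0.579 CPM. Creb3l1, a membrane-bound relative of ATF6, fell from 43.5 ± 15.0 to 12.3 ± 3.76 CPM. Genes named after their values were seen included xbp1, at 173 ± 96.8 and 771 ± 57.3 CPM, and ern1, the gene of IRE1, at 7.07 ± 1.69 and 20.3 ± 3.58 CPM, both of which rose. Hspa5, the chaperone BiP, was at 372, 396, 328 and 1092 CPM in MYCN and 252, 220.3, 214 and 205 CPM in myrAKT. Its log2 fold change of -1.30 (edgeR adjusted p = 0.0085) was -0.72 without MYCN 4 (adjusted p = 2.7e-04). Hyou1, another chaperone, was lower too, at -0.71 (adjusted p = 0.016), at -0.43 without MYCN 4 (adjusted p = 0.0046) and at -0.29 with library totals, where the call ended (adjusted p = 0.139). The chaperones did not move as a class: hsp90b1 (-0.51, adjusted p = 0.163) and canx (-0.033, adjusted p = 0.793) did not pass and pdia3 rose by 1.03 in log2. Of the disposal genes, derl2 (1.18 in log2), syvn1 (1.04) and sel1l (0.47) rose like herpud1 and edem1. The disposal gene derl1 fell by 0.51 in log2, and derl3 did not pass (adjusted p = 0.187). All of these but herpud1 and edem1 were also named after their values were seen. Leukocyte markers rose in the same myrAKT libraries as xbp1, and their part in this was not tested.

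Of 22 tested stress targets in cell death, oxidation and secretion 8 rose, 7 fell and 7 did not pass, with a median of 0.073, where 37.6% of all tested genes rose and 38.4% fell. With library totals 10 were higher and 5 lower, with a median of 0.50, beside 45.4% and 27.6% of all genes and a median of 0.34. Hmox1a, the stress-induced heme oxygenase, rose from 14.1 ± 2.25 to 98.8 ± 12.8 CPM. Ero1a and ero1b, which drive disulphide formation and are targets of the ATF4 and CHOP pathway, rose from 13.9 ± 1.57 to 92.2 ± 16.1 CPM and from 13.2 ± 2.54 to 71.6 ± 11.6 CPM. Gadd45ga, a growth arrest gene, fell from 101 ± 14.4 to 13.3 ± 1.081 CPM. Gclc, the rate-limiting enzyme of glutathione synthesis named after its values were seen, fell from 181 ± 12.6 to 75.4 ± 5.36 CPM. Chac1, the enzyme that degrades glutathione, was also called lower, but that call held under only 4 of 15 alternatives.

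The likeness of profiles was measured as the root mean square difference over the 8 libraries of log2 CPM, each gene centred on the mean of its group means, where 0 means the same profile. Among all tested genes, the nearest to atf4a were vapa at 0.052, klc1b at 0.063 and farsa at 0.064. Those nearest to atf4b were zgc:77849 at 0.059, dcun1d2b at 0.071 and tax1bp1b at 0.073. Within the response genes, chac1 was nearest to both atf4 genes, at 0.203 from atf4a and 0.272 from atf4b. The genes that rose were nearest to each other, trib3 and sesn2 at 0.4004 and ddit4 to sesn2 at 0.467. For asns the nearest was atf4a at 0.447, for ddit3 it was atf4b at 0.298, and atf5a was far from all, at 1.67 from its nearest, atf4a. The measure includes the difference between the groups, so the order among these 9 genes largely restates their fold changes.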

How the data were processed

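The authors deposited raw read counts per gene symbol for 8 libraries, whole numbers that sum to different totals. The submitters' processing notes name HTSeq 0.6.1, TopHat2 2.1.1, the GRCz10 build, SAMtools 1.5, Trim Galore 0.4.4, edgeR and FastQC 0.11.5, with no role or order; annotation and strand setting were not given in the sources used here, so overlapping or antisense genes cannot be told apart. The labels call the molecule polyA RNA while their protocol describes depletion of ribosomal RNA.

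The whole table was filtered and fitted with edgeR 4.0.16 in R 4.3.3 (filterByExpr, TMM factors of 0.747 to 1.22, quasi-likelihood F test, two-sided, group as the only term), with adjustment over 12126 genes; 732 rows had no count. Fold changes are myrAKT minus MYCN on the log2 scale, and SE comes from the F statistic. The fit was tested on simulated counts in which few genes changed, equally up and down. That run cannot judge the scaling of these libraries, where most genes were called. Replicate pairs differed by 21.2 to 286 times the sampling variance, which does not show whether they came from separate fish. Each library was counted as 1 sample. The lists held 351 symbols, of which 272 matched directly and 25 through a RefSeq synonym (GRCz12tu, names only). Named genes were the 9 response genes, dbh and th, the nearest profiles, and genes marked as named after their values were seen. Outside the marker lists, up to 3 genes per list had the smallest adjusted p in the direction most passing genes took. Another 1 per list went the other way. Of each marker list the genes with the highest mean CPM were followed too. The response genes and lists were chosen with earlier results of these data known. Alternatives were other scalings and filters, DESeq2 1.42.0, a replicate block and leaving out each library.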

Additional observations from a re-analysis of the deposited data

Results flagged for a closer look

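In 166 groups of 4 libraries, Dixon's test at 95% was applied to the levels of 82 genes and to the atf4b share, and 13 extreme libraries were found, where chance gives about 5% of groups. Of the response genes, asns was high in MYCN 4 (201 CPM), atf5a was low in MYCN 4 (121 CPM) and ddit4 was high in MYCN 3 (26.4 CPM). MYCN 4 was also the highest MYCN library for hspa5 (1092 CPM), hyou1 (384 CPM), eif2ak1 (72.3 CPM), eif2b1 (88.5 CPM) and dnajb9b (2.28 CPM), and the lowest for jun (137 CPM).

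Mbpb, of myelin, was high in MYCN 3 (36.8 CPM), btg2, a handling marker, was high in MYCN 1 (500.6 CPM), and cebpa was low in MYCN 1 (7.16 CPM). Among the myrAKT libraries slc3a2a was high in myrAKT 3 (206 CPM).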

How the results depend on the processing

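Of 82 genes followed in this way, 72 kept direction and call under all 15 alternatives. The 82 included the genes with the highest mean CPM of each marker list. They left out the nearest profiles and the markers without a count in a group. Also left out were tfap2b, chgb, ddc, elavl3, elavl4, stmn2b, phgdh, hsp90b1, canx, pdia3, derl1, derl2, derl3, syvn1 and sel1l. With library totals 1 response gene was lower in place of 3, and atf4a, chac1, dele1, eif2ak1 and hyou1 lost their calls. Leaving out single libraries moved asns from -0.056 (without MYCN 1; -0.043 without MYCN 2) to 0.38 (without MYCN 4), atf4b from -0.099 (without MYCN 4) to 0.12, and cebpg from -0.076 (without MYCN 4) to 0.24; the negative asns values, and all atf4b and cebpg values, did not pass. The cause was not tested. The titles number the libraries 1 to 4 without saying whether equal numbers are pairs. Same-numbered deviations correlated between -0.163 and 0.12, which cannot decide whether those libraries shared a preparation. With the replicate block 3 response genes were higher and 3 lower, 4433 genes of all were higher and 4383 lower, and the atf4b share differed by 8.92 points with a sign-flip p of 0.125, the smallest that an exact test of 4 pairs can give. The atf5 share was not run, since atf5b was not analysed here. Levels are not compared between genes, as no lengths were used.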
